A study of Mus musculus with 8 samples.

Results

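De novo lipogenesis, the synthesis of fatty acids from acetyl-CoA, was followed at the RNA level through 10 genes in the livers of 8 male mice. The genes were chosen by name, as the enzymes that make fatty acids (Acly, Me1, Acaca, Acacb, Fasn, Elovl6 and Scd1), the transcription factors that drive these enzymes (Srebf1 and Mlxipl) and Pnpla3, a lipid droplet protein induced together with them. They are 10 of the 49585 genes in the count table, and all 10 had enough counts for edgeR's filter, which kept 16496 genes. The males, 3 LP+/+, 2 LPfl/+ and 3 LP245/+, had spent 3 months on HFCD, a high-fat, choline-deficient diet begun at 21 days of age. LPfl/+ livers were Alb-CreTG, Trp53fl/+, so that Cre deleted 1 Trp53 allele. LP245/+ livers were Alb-CreTG, Trp53wm-R245W/+, in which Cre converts a conditional allele from wild-type p53 to p53R245W. The labels give the LP+/+ livers as Alb-Cre0, replicates 1 and 2 with an unrecombined Trp53fl/+ and replicate 3 with an unrecombined Trp53wm-R245W/+ genotype. By the labels, an effect of Cre itself cannot be told apart from the Trp53 genotype in the comparisons with LP+/+ livers. LPfl/+ and LP245/+ livers both carried Cre. The study's methods allow for controls without Cre as well as with Alb-Cre, whereas its results describe the LP+/+ cohort as carrying Alb-Cre. Whether the control livers sequenced had Cre was not resolved here. Alb-Cre recombines in hepatocytes and cholangiocytes and leaves the other liver cells with wild-type p53.

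In the liver, citrate exported from mitochondria is split into acetyl-CoA, which is carboxylated to malonyl-CoA and then condensed to palmitate with electrons from NADPH. Palmitate is elongated and desaturated and then esterified to triglyceride, the lipid that accumulates in fatty liver. Insulin raises the pathway through SREBP-1c, a product of Srebf1, and carbohydrate raises it through ChREBP, the product of Mlxipl. A liver fed on carbohydrate expresses the pathway strongly, and fasting lowers it.

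The 8 libraries held between 26304526 and 31370714 counts, and 3 counts, taken as the floor of detection, were at most 1.14e-05% of a library. The numbers of the libraries in the labels form 2 series. All LP245/+ livers and LP+/+ replicates 2 and 3 belong to the first, and LP+/+ replicate 1 and both LPfl/+ livers to the second. The first principal component, with 31% of the variance, separated these series, so LP245/+ and LPfl/+ livers were never in the same series, and their comparison cannot be told apart from the series without the LP+/+ livers. Trp53 had 226, 258 and 202 normalized read counts in the LP+/+, 127 and 178 in the LPfl/+ and 316, 294 and 194 in the LP245/+ livers. Cdkn1a, the p53 target that encodes p21, had 188, 138 and 184 normalized read counts in the LP+/+, 75.0 and 100 in the LPfl/+ and 14.5, 25.3 and 27.5 in the LP245/+ livers. The 9 hepatocyte markers summed to between 2934210 and 4281290 normalized read counts in every liver. LPfl/+ replicate 2 stood apart in some of them, with 18959 normalized read counts of Tat against 38443 or more in the other livers, 95369 of Cps1 against 140615 or more and 30592 of Ass1 against 44229 or more. Its Alb, Apoa1, Ttr, Serpina1c, Cyp2e1 and Hnf4a lay inside the range of the other livers. The same liver had the lowest level of 7 of the 10 lipogenesis genes. Of the 7 adipocyte markers, whose cells also make fatty acids, Lep was at 0 and Adipoq, Plin1 and Retn at no more than 2 counts in every liver, and most of the sum came from Adrb3, with 44 to 119 counts. The list summed to between 104 and 139 normalized read counts in the LP+/+, 106 and 135 in the LPfl/+ and 81.5 and 94.0 in the LP245/+ livers. Kupffer cell and macrophage markers summed to between 5361 and 5928 normalized read counts in the LP+/+, 5312 and 7093 in the LPfl/+ and 4497 and 5268 in the LP245/+ livers. Endothelial markers summed to between 8693 and 11421 normalized read counts in the LP+/+, 7068 and 9595 in the LPfl/+ and 10182 and 10863 in the LP245/+ livers. In this sum the LPfl/+ livers lay below the LP245/+ livers, but of its single markers only Pecam1 did so, and Stab2, Lyve1, Clec4g and Kdr overlapped. In the adipocyte and the Kupffer cell and macrophage sums, the LP245/+ livers lay below all others. Of the single markers, only Adrb3 in the first list and Vsig4 in the second did so. The other markers of both lists, among them Cfd, Clec4f, Adgre1 and Cd68, did not separate the LP245/+ livers from the others. The part of these cells in the results was not tested, and in bulk tissue fewer cells of a type and less RNA per cell cannot be told apart.

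Sequences before starts of the genes are shown first, because most of the enzymes are known to share SREBP-1 and ChREBP as regulators. RefSeq promoters on GRCm38.p6 were matched by symbol for 9 of the 10 genes, all but Scd1, in 13 windows from 250 bases before to 50 bases after a start. The only windows of Acaca (chr11:84195188-84195437) and Acacb (chr5:114165268-114165517) lay inside these genes. The sequence before the first base of either gene was therefore not searched. Each printed run gives the 250 bases before a start, 5′ to 3′ on the strand of the gene, in lower case, with matches to any of the motifs searched in capitals. Fasn, Elovl6 and Me1 are given as examples of the enzymes, all of which had their lowest mean in LPfl/+ livers. Srebf1 (the most downstream of its 3 starts) and Mlxipl (both starts) are given as the regulators.
Fasn, chr11:120824548-120824797, minus strand: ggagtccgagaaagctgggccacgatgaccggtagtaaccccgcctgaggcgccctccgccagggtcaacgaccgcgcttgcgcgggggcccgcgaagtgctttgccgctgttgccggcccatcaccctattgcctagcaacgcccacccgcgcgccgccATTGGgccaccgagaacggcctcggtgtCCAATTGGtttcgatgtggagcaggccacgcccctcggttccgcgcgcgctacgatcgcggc
Elovl6, chr3:129532136-129532385, plus strand: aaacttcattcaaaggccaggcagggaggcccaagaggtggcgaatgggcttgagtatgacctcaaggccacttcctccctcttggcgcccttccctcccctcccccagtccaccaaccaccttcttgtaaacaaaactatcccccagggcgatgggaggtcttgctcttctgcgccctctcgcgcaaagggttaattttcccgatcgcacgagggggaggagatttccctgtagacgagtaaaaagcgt
Me1, chr9:86695915-86696164, minus strand: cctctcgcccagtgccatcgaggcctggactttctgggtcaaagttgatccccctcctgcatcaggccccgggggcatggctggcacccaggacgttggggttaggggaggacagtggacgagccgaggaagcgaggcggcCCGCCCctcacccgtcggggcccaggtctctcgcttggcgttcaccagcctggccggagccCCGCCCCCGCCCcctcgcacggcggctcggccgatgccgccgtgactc
Srebf1, chr11:60210472-60210721, minus strand: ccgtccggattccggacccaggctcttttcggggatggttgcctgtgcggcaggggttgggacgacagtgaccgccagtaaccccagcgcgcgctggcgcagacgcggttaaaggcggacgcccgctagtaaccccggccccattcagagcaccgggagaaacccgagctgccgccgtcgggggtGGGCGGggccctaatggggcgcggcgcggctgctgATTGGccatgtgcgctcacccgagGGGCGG
Mlxipl, upstream start, chr5:135089640-135089889, plus strand: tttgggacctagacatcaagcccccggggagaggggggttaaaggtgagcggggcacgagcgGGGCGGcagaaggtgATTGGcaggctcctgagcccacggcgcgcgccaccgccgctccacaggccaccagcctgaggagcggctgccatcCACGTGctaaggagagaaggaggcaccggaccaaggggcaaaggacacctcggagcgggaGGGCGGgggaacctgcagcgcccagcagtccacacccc
Mlxipl, downstream start, chr5:135106641-135106890, plus strand: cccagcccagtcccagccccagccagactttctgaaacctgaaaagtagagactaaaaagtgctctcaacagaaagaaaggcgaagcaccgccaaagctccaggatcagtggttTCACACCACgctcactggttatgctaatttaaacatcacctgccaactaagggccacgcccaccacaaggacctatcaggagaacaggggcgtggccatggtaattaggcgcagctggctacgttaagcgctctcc

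Of the motifs searched on both strands of the 13 windows, CCAAT, the letters read by NF-Y, was in 8 of the 13 windows (in Acly, Me1, Acacb, Fasn, Srebf1, Mlxipl and Pnpla3) and in 37.4% of all 32851 promoters. On the opposite strand it reads ATTGG, and in Fasn it stood at positions -90, -62 and -59 from the start, the last 2 of which overlap. In Me1 the CCAAT match lay in the window of another, more downstream start, at chr9:86687278-86687527, which is not printed. GGGCGG, an Sp1 motif, was in 6 of the 13 windows (in Acly, Me1, Srebf1, Mlxipl and Pnpla3) and in 35.7% of all promoters. TCACNCCAC, a form of the sterol regulatory element that SREBPs bind, was in 1 of the 13, before the downstream start of Mlxipl, and in 1.24% of all promoters. CACGTG, the E-box, was also in 1 of the 13, before the upstream start of Mlxipl at position -98, and in 7.15% of all promoters. A pair of these E-boxes with 5 bases between them, a form of the carbohydrate response element, was in 0 of the 13 and in 0 of the 32851 promoters. Elovl6, which had the smallest p of the 10 genes in LP245/+ compared with LPfl/+ livers, held none of these letters in its window. These are matches of letters in a short window, and binding was not measured.

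Per length of transcript, the 10 genes spanned a wide range of levels. Scd1 was the most abundant, with a mean of 3565 TPM (counts per summed exon length, scaled to a fixed total in each liver) over the 8 livers and a range from 1901 to 5041, above every other member in every liver. Acly (mean 211 TPM), Fasn (197 TPM) and Srebf1 (149 TPM) followed and overlapped in their ranges over the livers. Me1 (62.3 TPM), Mlxipl (49.8 TPM) and Elovl6 (45.1 TPM) overlapped with each other and lay below Srebf1 in range. Acaca (20.8 TPM) and Acacb (18.7 TPM) overlapped with each other, and the lower end of Elovl6 reached into the range of Acaca. Pnpla3 was last, with a mean of 3.95 TPM and a range from 0.818 to 11.7 TPM that reached into that of Acacb. The counts do not separate the forms of Srebf1 or of Mlxipl.

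The first step supplies acetyl-CoA and NADPH. Acly (ENSMUSG00000020917, chromosome 11 from 100476353 to 100528000), ATP citrate lyase, had 18254, 14256 and 10165 normalized read counts in the LP+/+, 14734 and 8610 in the LPfl/+ and 13815, 15101 and 14856 in the LP245/+ livers. The LP245/+ livers lay close together, inside the range of the LP+/+ livers, and all genotypes overlapped. Me1 (ENSMUSG00000032418, chromosome 9 from 86581371 to 86695953), the cytosolic malic enzyme that makes NADPH, had 3683, 3675 and 3027 normalized read counts in the LP+/+, 2186 and 2098 in the LPfl/+ and 2810, 3082 and 3060 in the LP245/+ livers. Both LPfl/+ livers were below all the others, and LP+/+ and LP245/+ overlapped. Compared with LP+/+, Me1 in LPfl/+ livers was at a log2 fold change of -0.68 (standard error [SE] 0.12, unadjusted p = 0.000252, adjusted p = 0.697 from edgeR), at position 5 of the 16496 genes by p.

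Acetyl-CoA carboxylase makes malonyl-CoA, in the cytosol for fatty acid synthase by the product of Acaca and at the mitochondrial surface, where malonyl-CoA restrains the entry of fatty acids for oxidation, by that of Acacb. Acaca (ENSMUSG00000020532, chromosome 11 from 84129672 to 84401651) had 5572, 4254 and 3611 normalized read counts in the LP+/+, 3551 and 3349 in the LPfl/+ and 5321, 5197 and 4009 in the LP245/+ livers. The LPfl/+ livers were again the lowest, with LP+/+ replicate 3 close above them. Acacb (ENSMUSG00000042010, chromosome 5 from 114146535 to 114250761) had 4386, 1662 and 996 normalized read counts in the LP+/+, 1660 and 1345 in the LPfl/+ and 3087, 2420 and 2106 in the LP245/+ livers. It spread widely in the controls, where LP+/+ replicate 1 had the highest and replicate 3 the lowest level of the 8 livers, 4.41 times apart. Gm11437, which lies on the other strand of Acaca, had between 261 and 477 counts, and the counted strand is not given in the sources used here.

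Fasn (ENSMUSG00000025153, chromosome 11 from 120805846 to 120824547), fatty acid synthase, had 38741, 21341 and 17042 normalized read counts in the LP+/+, 18592 and 10893 in the LPfl/+ and 43783, 38994 and 22253 in the LP245/+ livers. All LP245/+ livers were above both LPfl/+ livers, while LP+/+ livers overlapped with either genotype. Over the 8 livers Fasn varied 4.02 times, the most of the enzymes after Acacb. Elovl6 (ENSMUSG00000041220, chromosome 3 from 129532355 to 129638495), which elongates palmitate to stearate, had 3707, 4339 and 2852 normalized read counts in the LP+/+, 2441 and 1973 in the LPfl/+ and 4429, 4331 and 4605 in the LP245/+ livers. The LPfl/+ livers were below every other liver, and the LP245/+ livers lay within 1.06 times of each other. Scd1 (ENSMUSG00000037071, chromosome 19 from 44394455 to 44407879), the desaturase that turns stearate into oleate, had 291102, 241575 and 171366 normalized read counts in the LP+/+, 166070 and 110346 in the LPfl/+ and 271241, 236185 and 229209 in the LP245/+ livers. Here too both LPfl/+ livers were the lowest of the 8, although LPfl/+ replicate 1 was close to LP+/+ replicate 3.

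The transcription factors and Pnpla3 overlapped between all genotypes. Srebf1 (ENSMUSG00000020538, chromosome 11 from 60199089 to 60222581), which encodes SREBP-1, had 9905, 12750 and 8910 normalized read counts in the LP+/+, 11090 and 6623 in the LPfl/+ and 11357, 14014 and 7864 in the LP245/+ livers. Each genotype spanned much of the range of the others. Mlxipl (ENSMUSG00000005373, chromosome 5 from 135089890 to 135138382), which encodes ChREBP, had 3607, 2449 and 3463 normalized read counts in the LP+/+, 3119 and 3369 in the LPfl/+ and 4548, 3394 and 3178 in the LP245/+ livers. The LPfl/+ livers lay inside the range of the LP+/+ livers. Pnpla3 (ENSMUSG00000041653, chromosome 15 from 84167837 to 84187236) had 214, 57.6 and 16.0 normalized read counts in the LP+/+, 55.7 and 58.6 in the LPfl/+ and 64.1, 42.4 and 89.6 in the LP245/+ livers. Its controls were 13.3 times apart, with LP+/+ replicate 1 above and replicate 3 below every other liver, and LP+/+ replicate 3 had only 17 counts.

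**Figure D1:**
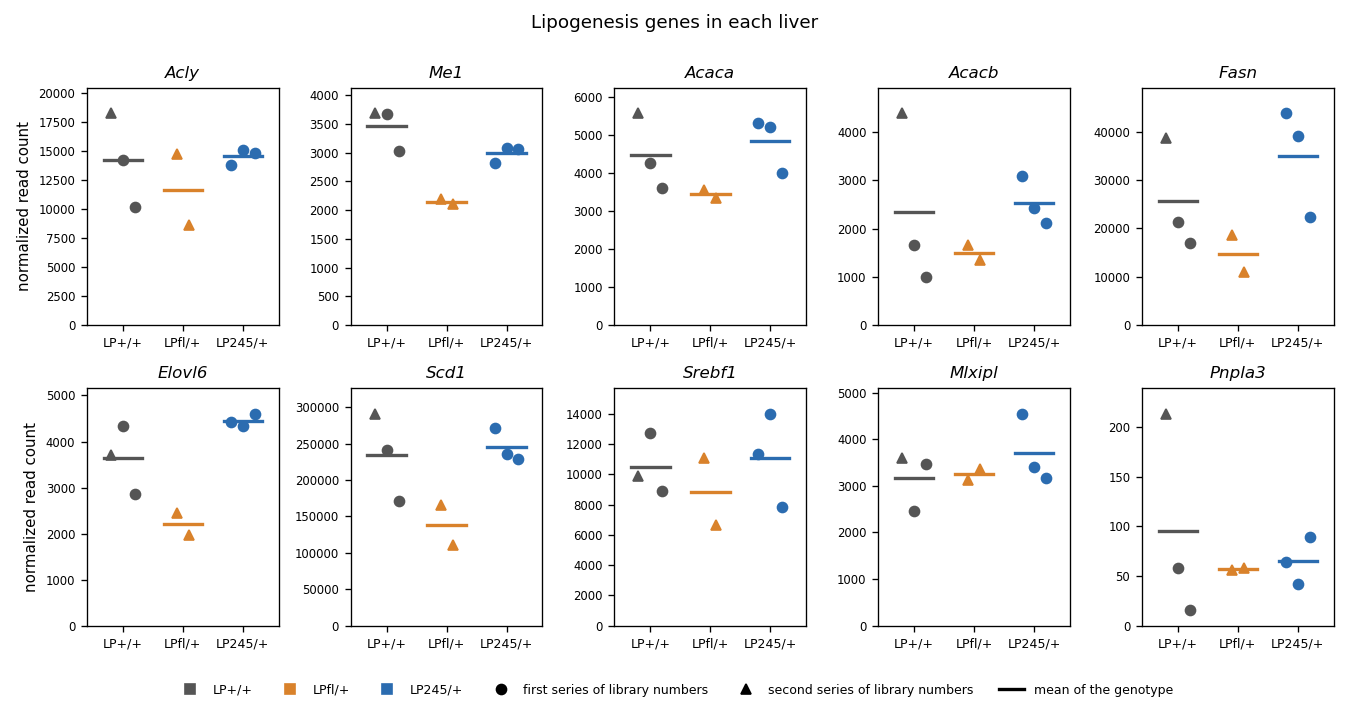
Normalized read counts (vertical axes, each starting at 0) of the 10 lipogenesis genes in each liver, by genotype (horizontal axis). Points are livers, lines are means of the genotype, and the point's shape gives the series of library numbers. Both LPfl/+ livers lie below all others for Me1, Acaca, Elovl6 and Scd1, and LP+/+ replicate 1 stands above the other controls for Acacb, Fasn and Pnpla3.

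Read by liver, LP+/+ replicate 1 had the highest level of 6 of the 10 genes and LPfl/+ replicate 2 the lowest of 7. LP+/+ replicate 3 had the lowest level of Acacb and Pnpla3, and LP+/+ replicate 2 that of Mlxipl. LP245/+ livers held the highest levels of Fasn, Elovl6, Srebf1 and Mlxipl. Over the 8 livers the levels of single genes varied from 1.66 times (Acaca) to 13.3 times (Pnpla3). Against the mean of the 10 genes, each standardized on the log2 scale, Pearson's r over the 8 livers was 0.96 for Scd1, Fasn and Acaca, 0.90 for Acacb, 0.86 for Acly and 0.82 for Elovl6. It was 0.69 for Me1, 0.61 for Srebf1, 0.56 for Pnpla3 and 0.29 for Mlxipl. Each gene is part of that mean, and the livers share genotypes and library series, so these are descriptions. The genes outside the 10 whose levels were most like this mean over the 8 livers were Zdhhc7 (r = 0.976), Kctd7 (0.976), Ccdc127 (0.963) and Arhgef2 (0.955).

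LP245/+ compared with LP+/+ livers asks what p53R245W beside a wild-type allele does to the pathway. None of the 10 genes passed the cutoff, a log2 fold change of 1 or more in either direction at an adjusted p of 0.05 or less in edgeR, which 0.00606% of all genes passed. At an unadjusted p under 0.05 there were also 0 of 10, against 5.93% of all genes, and with DESeq2 0 as well. The genotypes overlapped for all 10, whereas 6.03% of all genes were higher and 5.79% lower in every LP245/+ liver. The median log2 fold change of the 10 genes was 0.11, beside 0.00 over all genes tested, with 8 higher, as were 50.6% of all genes, and 2 lower. Fasn was highest at 0.46 (SE 0.35, adjusted p = 0.856 from edgeR), with a 95% interval from -0.32 to 1.23. Elovl6 had a log2 fold change of 0.31 (95% interval from -0.04 to 0.65, adjusted p = 0.831 from edgeR). For Scd1 it was 0.08 (95% interval from -0.40 to 0.56) and for Acly 0.05 (95% interval from -0.47 to 0.57). Me1 was lower in LP245/+, at -0.20 (95% interval from -0.44 to 0.04, adjusted p = 0.831 from edgeR). Srebf1 had 0.09 (95% interval from -0.47 to 0.64) and Mlxipl 0.24 (95% interval from -0.16 to 0.63). Without LP+/+ replicate 3, 3 genes were higher and 7 lower, and the median was -0.07, whereas without LP+/+ replicate 1 it was 0.32 with 9 higher. At an unadjusted p under 0.05 there were then 2 genes without LP+/+ replicate 1, Acacb at 0.95 and Fasn at 0.88, against 6.7% of all genes. There was 1 gene without LP+/+ replicate 2 (Elovl6, higher), against 5.62% of all genes, and 1 without replicate 3 (Me1, lower), against 5.82%. Inside the first library series, the 3 LP245/+ livers had higher means than LP+/+ replicates 2 and 3 for 9 of the 10 genes, by a median log2 ratio of 0.30.

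LPfl/+ compared with LP+/+ livers asks what the loss of 1 Trp53 allele does. Again 0 of the 10 genes passed the cutoff, as did 0% of all genes, and the smallest adjusted p of the 10 was 0.697. DESeq2 also passed 0 of the 10, since Me1, with an adjusted p of 0.00204 from DESeq2, had a log2 fold change of -0.69. Of the 10, 9 were lower in LPfl/+, as were 50.2% of all genes, and Mlxipl was at 0.04, and the median log2 fold change was -0.66, beside 0.00 over all genes. Me1, Elovl6 and Scd1 had an unadjusted p under 0.05 with lower levels, 3 of 10 against 2.67% of all genes in that direction. Me1, Acaca, Elovl6 and Scd1 did not overlap between the genotypes, 4 of 10 against 13.2% of all genes. The log2 fold change was -0.71 for Elovl6 (SE 0.17, unadjusted p = 0.00241, adjusted p = 0.697 from edgeR) and -0.75 for Scd1 (SE 0.24, unadjusted p = 0.0119, adjusted p = 0.697). Fasn had -0.79 (SE 0.40, 95% interval from -1.68 to 0.09), Acacb -0.64 (95% interval from -1.74 to 0.47) and Acaca -0.37 (95% interval from -0.80 to 0.07). For Srebf1 it was -0.24 (95% interval from -0.87 to 0.39). Within the second series, both LPfl/+ livers stood against LP+/+ replicate 1 alone, and their mean was lower for 10 of the 10 genes, by a median log2 ratio of -0.76. LP+/+ replicate 1 had the highest level of 6 of these genes, and without it the median log2 fold change was -0.23, with 7 lower. Without that liver, 3 of the 10 genes had an unadjusted p under 0.05, against 11.7% of all genes. The number at an unadjusted p under 0.05 was 3 without LP+/+ replicate 2, against 4.3% of all genes, and 6 without LP+/+ replicate 3, against 5.07%. With only 1 LPfl/+ liver kept, 9 genes were lower without LPfl/+ replicate 1 and 8 without LPfl/+ replicate 2. Counts by p are not given for these fits, which leave 1 liver in a group. With any single liver left out, the log2 fold change of Me1 ran from -0.78 to -0.63. That of Elovl6 ran from -0.88 to -0.58 and that of Scd1 from -1.09 to -0.50.

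LP245/+ compared with LPfl/+ livers asks whether p53R245W differs from the loss of an allele. All 10 genes were higher in LP245/+, as were 50.8% of all genes, with a median log2 fold change of 0.49 beside 0.00 over all genes, but 0 passed the cutoff, which 0% of all genes passed. Me1, Acaca, Fasn, Elovl6 and Scd1 had an unadjusted p under 0.05, 5 of 10 against 4.07% of all genes in that direction. Together with Acacb they were also the 6 genes whose genotypes did not overlap, against 12.1% of all genes. Fasn had the largest log2 fold change, 1.25 (SE 0.40, unadjusted p = 0.0114, adjusted p = 0.450 from edgeR). Elovl6 had the smallest p of the 10, with a log2 fold change of 1.02 (SE 0.18, unadjusted p = 0.000206, adjusted p = 0.362 from edgeR), and was at position 5 of all genes by p. Scd1 had 0.83 (SE 0.25, unadjusted p = 0.00715, adjusted p = 0.402), Acaca 0.49 (SE 0.19, unadjusted p = 0.0304) and Me1 0.48 (SE 0.12, unadjusted p = 0.00284). Srebf1 was at 0.33 (95% interval from -0.30 to 0.95), Mlxipl at 0.20 (95% interval from -0.25 to 0.64) and Pnpla3 at 0.19 (95% interval from -1.58 to 1.96). In 3 alternatives some of the genes passed the cutoff. DESeq2, the tool the authors used, called Elovl6 (log2 fold change 1.01, adjusted p = 4.5e-05 from DESeq2) among 54 genes, edgeR on these 2 genotypes alone called Elovl6 (adjusted p = 0.0192) among 51, and edgeR without the filter on low counts called Elovl6 (adjusted p = 0.00150) and Fasn (adjusted p = 0.0240) among 122. The number at an unadjusted p under 0.05 was between 4 and 6 without any single LP+/+ or LP245/+ liver, against between 6.45% and 10.8% of all genes. With only 1 LPfl/+ liver kept, 10 genes were higher without LPfl/+ replicate 1 and 9 without LPfl/+ replicate 2. Counts by p are not given for these fits, which leave 1 liver in a group. With any single liver left out, the log2 fold change of Fasn ran from 0.92 to 1.69 and that of Elovl6 from 0.87 to 1.18. That of Scd1 ran from 0.57 to 1.16, of Acaca from 0.42 to 0.61 and of Me1 from 0.45 to 0.53. This comparison and the other comparisons share livers, so the low values of LPfl/+ enter both of its comparisons.

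**Figure D2:**
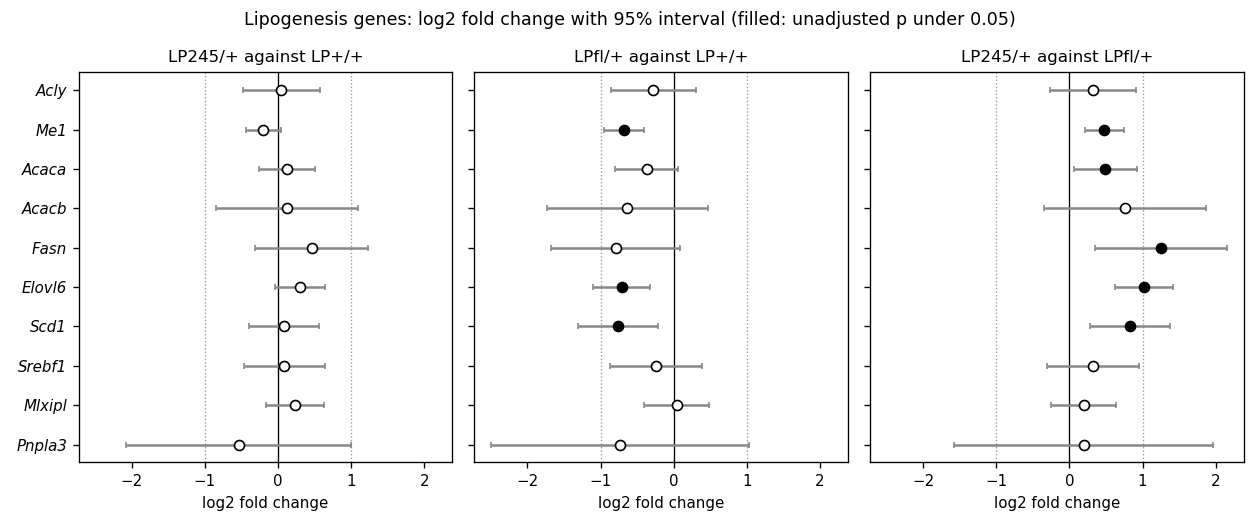
Log2 fold change (horizontal axis) of each lipogenesis gene in the 3 comparisons, from edgeR, with 95% intervals. Filled points have an unadjusted p under 0.05, and dotted lines mark a log2 fold change of 1 in either direction. Filled points number 0, 3 and 5 from left to right, with Fasn at 1.25 and Elovl6 at 1.02 in LP245/+ against LPfl/+.

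With the series as a covariate, Acacb was higher in the second series by a log2 value of 1.73 (SE 0.29, adjusted p = 0.0195 from edgeR), as 176 genes in all passed that adjusted p, and Pnpla3 by 2.54 (SE 0.55, adjusted p = 0.0695). In that fit only the LP+/+ livers link the series, replicate 1 against replicates 2 and 3. Compared with LPfl/+, LP245/+ livers then had a median log2 fold change of 1.03 over the 10 genes, with Acacb at 2.48 (adjusted p = 0.0624 from edgeR), Fasn at 2.27 and Elovl6 at 1.06. The cutoff was passed by 0 of these 10 and by 10 of all 16496 genes. At an unadjusted p under 0.05 in edgeR there were 8 of the 10, against 5.27% of all genes. Compared with LP+/+, the number was 7 in LPfl/+ livers, against 5.37%, and 2 in LP245/+ livers, against 6.65%.

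Of 14 further enzymes and cofactors of fatty acid synthesis, 0 passed the cutoff in any comparison, and their median log2 fold change was -0.02 in LP245/+ and -0.17 in LPfl/+ compared with LP+/+, and 0.13 for LP245/+ over LPfl/+ livers. Thrsp, a small acidic protein induced along with lipogenic enzymes, had 6877, 7118 and 3706 normalized read counts in the LP+/+, 4643 and 3879 in the LPfl/+ and 11821, 7531 and 13772 in the LP245/+ livers. All LP245/+ livers were above all others. Its log2 fold change was 0.91 compared with LP+/+ (SE 0.27, unadjusted p = 0.00728, adjusted p = 0.795 from edgeR) and 1.37 compared with LPfl/+ (SE 0.31, unadjusted p = 0.0015, adjusted p = 0.362). The desaturases Fads1 and Fads2, which act on polyunsaturated fatty acids, were at 0.49 and 0.43 in LP245/+ compared with LPfl/+, with unadjusted p-values of 0.0294 and 0.0242 and adjusted p-values of 0.534 and 0.525 in edgeR. Slc25a1, the carrier that exports citrate from mitochondria, was at -0.12 in LP245/+ and -0.16 in LPfl/+ compared with LP+/+. Elovl3, an elongase of long saturated fatty acids, was at -0.72 in LP245/+ compared with LP+/+ (SE 0.43, adjusted p = 0.839 from edgeR), where LP+/+ replicate 1 had 17062 normalized read counts and the other controls 4250 and 6734.

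NADPH comes from the pentose phosphate pathway as well as from Me1. The 7 genes that supply it, 5 of that pathway with Idh1 and Mthfd1, had median log2 fold changes of -0.13 in LP245/+ and -0.19 in LPfl/+ compared with LP+/+ and 0.10 for LP245/+ over LPfl/+ livers, and 0 of 7 had an unadjusted p under 0.05 in any comparison. Pgd, which encodes 6-phosphogluconate dehydrogenase, was at -0.40 in LPfl/+ compared with LP+/+ (SE 0.19, adjusted p = 0.744 from edgeR). G6pdx, whose enzyme opens the pathway, was at -0.22 in LP245/+ compared with LPfl/+ (SE 0.15, adjusted p = 0.736), with the LP245/+ livers below both LPfl/+ livers. Triglyceride assembly, the step after synthesis, had a median of 0.13 over 10 genes in LP245/+ compared with LPfl/+ livers. Lpin1, a phosphatidate phosphatase, had 4201, 4266 and 8329 normalized read counts in the LP+/+, 4841 and 1903 in the LPfl/+ and 14094, 6192 and 7910 in the LP245/+ livers. Its log2 fold change in LP245/+ compared with LPfl/+ was 1.48 (SE 0.48, unadjusted p = 0.0122, adjusted p = 0.454 from edgeR), and that of its relative Lpin2 was 1.03 (SE 0.33, unadjusted p = 0.011, adjusted p = 0.446). Gpat4, an acyltransferase that starts glycerolipid synthesis, was at -0.36 in LPfl/+ compared with LP+/+ (SE 0.16, unadjusted p = 0.0442, adjusted p = 0.721).

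The 14 partner and processing genes of SREBP-1 and ChREBP had medians of -0.04, -0.10 and 0.09 for LP245/+ over LP+/+, LPfl/+ over LP+/+ and LP245/+ over LPfl/+. Rxra, the partner of LXR, was at 0.31 in the last comparison (SE 0.12, unadjusted p = 0.0317, adjusted p = 0.538 from edgeR), the only gene of that list with an unadjusted p under 0.05 in a comparison. Of 15 insulin and AMPK inputs, Insr, the insulin receptor, was at 0.44 in LP245/+ compared with LPfl/+ (SE 0.15, unadjusted p = 0.0174, adjusted p = 0.486). Irs2, an insulin receptor substrate, was at -0.72 in LPfl/+ compared with LP+/+ (SE 0.30, unadjusted p = 0.0397, adjusted p = 0.718), with 859, 387 and 599 normalized read counts in LP+/+ and 447 and 294 in LPfl/+ livers. Stk11, which encodes the AMPK kinase LKB1, was at -0.26 in both LP245/+ and LPfl/+ compared with LP+/+, with adjusted p-values of 0.806 and 0.724 in edgeR. The 10 genes of glycolysis and fructolysis that ChREBP or SREBP-1 induce had medians of -0.01, -0.13 and 0.13 in the same order. Pklr, liver pyruvate kinase and a ChREBP target, was at -0.01 in LP245/+ and -0.32 in LPfl/+ compared with LP+/+, with adjusted p-values of 0.995 and 0.792.

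**Figure D3:**
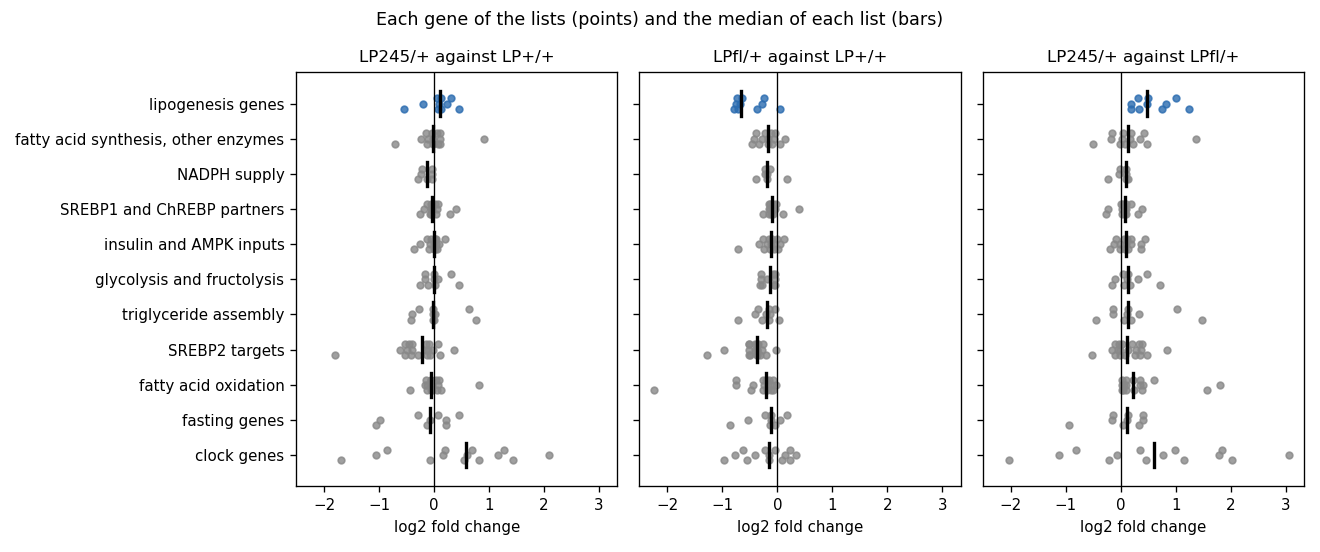
Log2 fold change (horizontal axis) of every gene of each list (points) with the median of the list (bars) in the 3 comparisons. The lipogenesis genes have medians of 0.11, -0.66 and 0.49, and the other lists apart from the clock genes have medians between -0.38 and 0.22.

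Lists for cholesterol, fatty acid oxidation and fasting were set beside the lipogenesis genes. The 20 SREBP2 targets, which serve cholesterol synthesis and uptake, were lower in LPfl/+ than in LP+/+ livers in 20 of 20 cases, against 50.2% of all genes (median -0.38), and in LP245/+ than in LP+/+ livers in 17 of 20 (median -0.22). Both differences rested on LP+/+ replicate 1. On ratios of mean normalized read counts without it, a setting chosen after seeing the data, 16 of 20 were higher in LPfl/+ (median log2 ratio 0.27) and 18 of 20 higher in LP245/+ (0.43) than in the other LP+/+ livers. In LP245/+ compared with LPfl/+ the median log2 fold change of the list was 0.11 with 12 higher. The 17 genes of fatty acid oxidation had a median of 0.22 in LP245/+ compared with LPfl/+, with 17 of 17 higher against 50.8% of all genes, and of -0.20 in LPfl/+ compared with LP+/+, with 17 of 17 lower. On ratios of means, 13 of 17 were higher without LP245/+ replicate 3 (median log2 ratio 0.14), and 13 of 17 were lower without LP+/+ replicate 3 (-0.09). Fgf21, a hepatokine induced by PPAR alpha and by nutrient stress, had 118, 117 and 126 normalized read counts in the LP+/+, 74.0 and 68.7 in the LPfl/+ and 227, 190 and 217 in the LP245/+ livers. The genotypes did not overlap in any comparison. In LP245/+ compared with LPfl/+ its log2 fold change was 1.57 (SE 0.17, adjusted p = 0.0818 from edgeR). The 9 fasting genes had a median of 0.12 in that comparison, which changed with the LPfl/+ liver kept. On ratios of means, 7 of 9 were higher without LPfl/+ replicate 1 (median log2 ratio 0.59), and 2 of 9 without LPfl/+ replicate 2 (-0.19). G6pc, glucose-6-phosphatase, was at -1.05 in LP245/+ compared with LP+/+ (SE 0.36, unadjusted p = 0.0154, adjusted p = 0.795) and at -0.94 compared with LPfl/+ (SE 0.39, unadjusted p = 0.0375, adjusted p = 0.551).

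**Figure D4:**
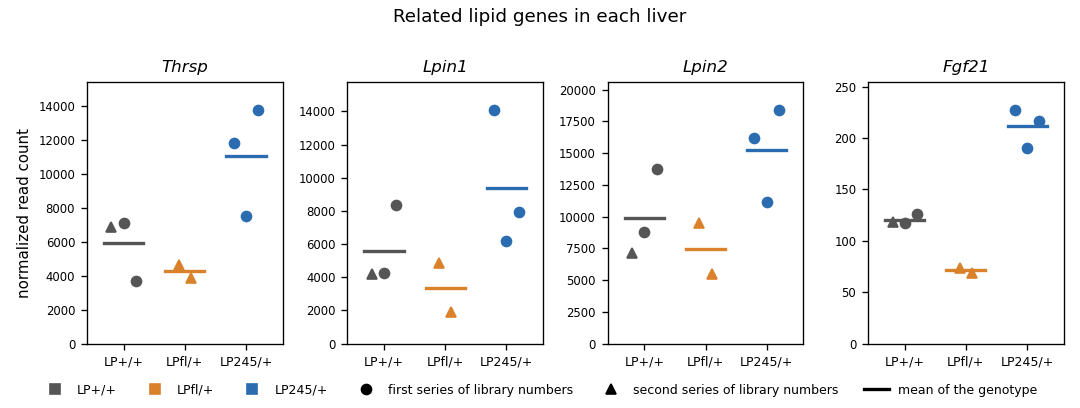
Normalized read counts (vertical axes, each starting at 0) of Thrsp, Lpin1, Lpin2 and Fgf21 in each liver, by genotype. Points are livers, lines are means of the genotype, and the point's shape gives the series of library numbers. All 3 LP245/+ livers lie above both LPfl/+ livers for each of the 4 genes, and above the LP+/+ livers as well for Thrsp and Fgf21.

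Lipogenesis genes follow the time of day in liver, and the clock genes differed between the same livers. Of 14 clock genes, 6 were higher and 3 lower in LP245/+ than in LP+/+ at an unadjusted p under 0.05, against 3.55% and 2.38% of all genes, 7 were higher and 3 lower than in LPfl/+, against 4.07% and 4.44%, and 0 differed at that p between LPfl/+ and LP+/+, while 0 passed the cutoff in any comparison. Dbp, an output of the clock, had 23.2, 221 and 102 normalized read counts in the LP+/+, 64.8 and 51.5 in the LPfl/+ and 667, 267 and 530 in the LP245/+ livers. All LP245/+ livers were above all others, by a log2 fold change of 2.09 compared with LP+/+ (SE 0.59, unadjusted p = 0.00567, adjusted p = 0.795 from edgeR) and of 3.07 compared with LPfl/+ (SE 0.74, unadjusted p = 0.00217, adjusted p = 0.362). Per2, a repressor of the core loop, was at 0.54 compared with LP+/+ (SE 0.14, adjusted p = 0.795) and 0.76 compared with LPfl/+ (SE 0.15, adjusted p = 0.362). Arntl, an activator of that loop, had 1073, 538 and 659 normalized read counts in the LP+/+, 759 and 831 in the LPfl/+ and 236, 497 and 355 in the LP245/+ livers. It was at -1.05 in LP245/+ compared with LP+/+ (SE 0.29, unadjusted p = 0.00497, adjusted p = 0.795) and at -1.13 compared with LPfl/+ (SE 0.32, unadjusted p = 0.00542, adjusted p = 0.394). Cry1, another repressor, was at -0.85 and -0.81 in these comparisons, with adjusted p-values of 0.795 and 0.362. Within LP+/+, replicate 1, the only one of the second series, had the lowest Dbp and the highest Arntl of the 8 livers, and Nr1d1, a clock repressor chosen after its values were seen, had 148 normalized read counts there against 902 and 722 in replicates 2 and 3. The hour at which the livers were taken is not given in the sources used here, and the part of the clock in the lipogenesis values was not tested.

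**Figure D5:**
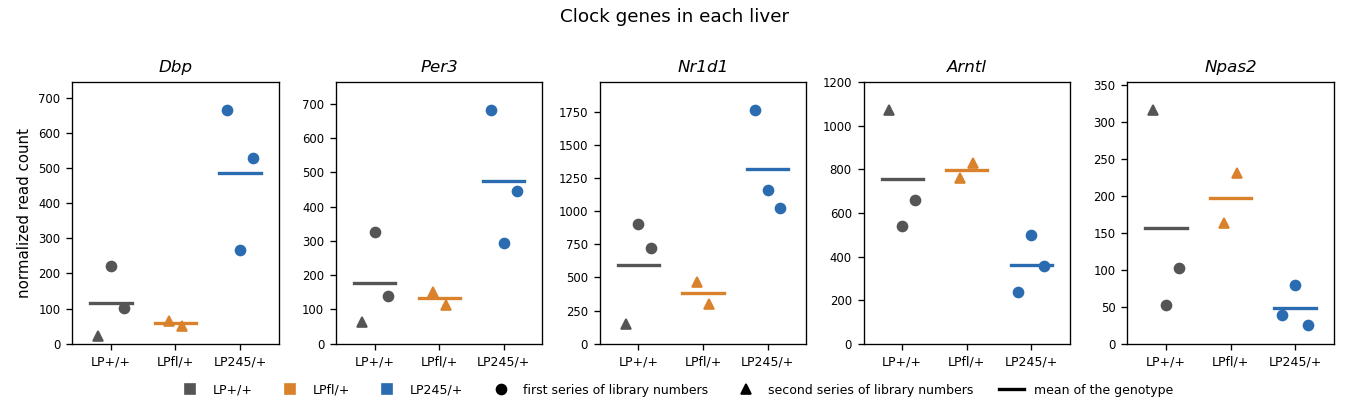
Normalized read counts (vertical axes, each starting at 0) of the clock genes Dbp, Per3, Nr1d1, Arntl and Npas2 in each liver, by genotype, of which Per3, Nr1d1 and Npas2 were chosen after their values were seen. Points are livers, lines are means of the genotype, and the point's shape gives the series of library numbers. Dbp and Nr1d1 are highest and Arntl lowest in the 3 LP245/+ livers, and LP+/+ replicate 1, a triangle, has the lowest Dbp and the highest Arntl.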

How the data were processed

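Livers of 3 LP+/+, 2 LPfl/+ and 3 LP245/+ mice were measured by RNA sequencing. The authors deposited raw read counts per gene, made from strand-specific total RNA libraries and paired-end reads with STAR on GRCm38 and a GENCODE annotation whose release, like the counted strand, is not given in the sources used here. The 8 columns were matched to the labels and 0 were left unmatched. Symbols and positions came from GENCODE M21, which left 259 genes without a symbol. Counts were tested with edgeR 4.0.16 in R 4.3.3 (quasi-likelihood F test, TMM, filterByExpr) with all 8 livers fitted together and Benjamini-Hochberg adjustment over 16496 genes. The cutoff was a log2 fold change of 1 or more in either direction with an adjusted p no higher than 0.05. Normalized read counts were divided by DESeq2 1.42.0 size factors. Intervals of fold changes are 95% intervals of the fit, and the floor of 3 counts covers counting error only. Figures were drawn with matplotlib 3.10.9. Among 28 pairs of libraries, the chi-square per gene was 17.9 or more, so no library was a copy of another.

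The lipogenesis genes and all gene lists were chosen with earlier results of these data known. All 10 genes were named, with Trp53 and Cdkn1a as checks, the 3 genes of each other list with the smallest p in a comparison, and the 5 genes most like the mean of the 10. Some genes that this rule takes are not reported here. Motifs were searched in RefSeq promoters. Alternatives were DESeq2, other normalizations and filters, no fold-change minimum, 2 genotypes alone, the replicate number as a block, the library series as a covariate or the first series alone, and each liver left out.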

Additional observations from a re-analysis of the deposited data

How the results depend on the processing

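In LP245/+ compared with LPfl/+ livers, the number of lipogenesis genes past the cutoff was 0 in edgeR with all livers, 1 with DESeq2, 2 with no filter on low counts and 1 with only these 2 genotypes, and 0 under the other settings and without any single liver. In the other comparisons it was 0 under every setting run. With no fold minimum it stayed at 0 in edgeR, and DESeq2 then added Scd1 in LP245/+ compared with LPfl/+ (adjusted p = 0.0339) and Me1 in LPfl/+ compared with LP+/+ (adjusted p = 0.00204). The median log2 fold change in LP245/+ compared with LPfl/+ was 1.03 with the series covariate and between 0.44 and 0.75 with a liver left out, the highest without LPfl/+ replicate 1. In that comparison 9 of 10 genes were higher without LPfl/+ replicate 2 or LP245/+ replicate 3. With a liver left out, the median was between -0.07 and 0.32 in LP245/+ and between -0.82 and -0.23 in LPfl/+ compared with LP+/+. The cause of these shifts was not tested.

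Directions turned for genes that did not pass the cutoff. With the series covariate, Pnpla3 in LP245/+ compared with LP+/+ was at 0.84 and Mlxipl in LPfl/+ compared with LP+/+ at -0.15, and with the first series alone, a setting chosen after seeing the data, Pnpla3 was at 0.83. With a liver left out, the log2 fold change of LP245/+ over LP+/+ ran from -1.05 to 0.84 for Pnpla3, from -0.25 to 0.95 for Acacb, from -0.15 to 0.27 for Acly, from -0.016 to 0.31 for Acaca, from -0.11 to 0.26 for Scd1 and from -0.12 to 0.27 for Srebf1. In LPfl/+ compared with LP+/+ it ran from -1.01 to 0.19 for Acacb, from -1.24 to 0.65 for Pnpla3, from -0.13 to 0.14 for Mlxipl, from -0.73 to 0.046 for Acly and from -0.67 to 0.070 for Srebf1. In LP245/+ compared with LPfl/+ it ran from -0.0075 to 0.76 for Acly and from -0.10 to 0.43 for Pnpla3. Fasn, Elovl6 and Me1 kept their direction in all 3 comparisons under every setting and without any single liver.

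Livers with the same replicate number did not deviate together (correlations between -0.08 and 0.03), and the labels do not pair the animals. With the replicate number as a block, 0 lipogenesis genes passed the cutoff in any comparison. In LP245/+ compared with LP+/+, 1 had an unadjusted p under 0.05, against 5.36% of all genes. The number was 5 in LPfl/+ compared with LP+/+, against 6%, and 6 in LP245/+ compared with LPfl/+, against 7.25%. With 2 LPfl/+ livers, both in the second library series, a difference of that genotype from the series rests on LP+/+ replicate 1, and Pnpla3, with between 17 and 221 counts, is the least precisely counted of the genes.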

Other observations

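Stellate cell and fibroblast markers summed to between 14432 and 15838 normalized read counts in the LP+/+, 12199 and 14984 in the LPfl/+ and 14688 and 15350 in the LP245/+ livers. Cholangiocyte markers, the other cells in which Alb-Cre recombines, summed to between 845 and 1016 in the LP+/+, 774 and 1144 in the LPfl/+ and 659 and 991 in the LP245/+ livers, and lymphocyte markers to between 63.8 and 70.1, 51.5 and 64.8, and 47.5 and 80.4. Of 6 markers of exocrine pancreas, Prss2 and Ctrb1 were at 0 in every liver, and the list summed to at most 17.6.

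Scd1 alone held between 0.415% and 1.06% of all counts of a library.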
